A study of Mus musculus with 24 samples.

Results

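Genes that carry out DNA replication and cell division were followed in whole mouse kidneys at embryonic day 18.5, shortly before birth. The set is a list of 40 gene symbols covering entry to S phase, DNA synthesis, mitotic entry, the mitotic kinases, the spindle and the anaphase-promoting complex. All 40 were found among the 54393 genes counted, and all 40 passed the filter on low counts in each comparison. The lowest count of any of them in any library was 628 reads.

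In a dividing cell, E2F factors and cyclin E start S phase, and the MCM helicase loaded on replication origins then unwinds the DNA. Cyclins A and B with Cdk1 bring the cell into mitosis, where Aurora and Polo-like kinases build the spindle and the spindle checkpoint holds back Cdc20 until every chromosome is attached. Many of these genes are transcribed in waves under the DREAM complex, FoxM1 and E2F factors, so their summed level in a tissue is commonly read as a measure of how many of its cells are cycling. In the kidney before birth, nephron progenitors under the capsule and the tips of the ureteric tree are among the dividing cells.

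The study concerns Dmrt2, Hmx2 and Hmx3, transcription factors examined for a role in the subtypes of intercalated cells, and profiled poly(A)-selected RNA of knockout kidneys and control littermates in 24 libraries. There were 3 Dmrt2 knockouts with 3 controls, 6 Hmx3; Hmx2 knockouts with 6 controls (replicates 1 to 3 and 4 to 6 in separate tables), and 3 libraries labelled Dmrt2; Hmx3; Hmx2 knockout (triple knockout) with 3 controls. The labels give the line of each library and whether it is a knockout or a control, but not the alleles. The sample descriptions mark Hmx3; Hmx2 controls 1 to 3 as WT, and the genotype of the other controls is not given. Whether separate embryos were used is left unstated, so the spread between libraries may in part be technical. Total counts ran from 52286824 to 127339273 reads. Levels are given as CPM, counts divided by library totals that were scaled with TMM factors within each line. Dmrt2 lay at 1.57 to 2.27 CPM in its knockouts and 12.4 to 14.9 CPM in their controls, and Hmx2 at 0 to 0.0605 against 1.57 to 2.25 CPM in the Hmx3; Hmx2 comparison. In the libraries labelled triple knockout Hmx2 lay at 0 to 0.0212 against 2.31 to 3.32 CPM in controls, but Dmrt2 was higher, at 17.8 to 19.4 against 10.6 to 12.1 CPM, so the Dmrt2 part of that label is not borne out as a loss of transcript and every direction given for these libraries rests on the label. Kidney markers were present in all 24 libraries, with Slc34a1, a phosphate transporter of the proximal tubule, at 944.3 to 1382 CPM and Six2, a nephron progenitor factor, at 70.2 to 146.9 CPM. Adrenal markers summed to 4.98 to 6.98 CPM. In such bulk samples fewer cells of a type and less RNA per cell cannot be told apart.

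All 40 genes were expressed in every library. Per kilobase of exon (RPKM, here CPM divided by exon length), Ube2c, the ubiquitin-conjugating partner of the anaphase-promoting complex, led in Dmrt2 controls at 45.6 ± 5.14 (SD, n = 3), followed by the replication clamp Pcna at 42.0 ± 2.34 and Cdc20 at 41.7 ± 3.47, which overlap within their spread. Ccne2, a cyclin E gene, was lowest there at 4.29 ± 0.282, within its spread of Cdc6 at 4.32 ± 0.607 and Ttk at 4.38 ± 0.328. Pcna led in Hmx3; Hmx2 controls at 53.6 ± 3.10 (SD, n = 6) and in triple controls at 47.1 ± 3.52 (SD, n = 3), while Ccne2 (3.64 ± 0.256) and the checkpoint kinase gene Ttk (4.23 ± 0.549) were lowest. Summed over the 40 genes, the level was 4019 ± 219 CPM in Dmrt2 knockouts and 3742 ± 268 CPM in their controls (SD, n = 3 each). It was 3641 ± 251 against 3626 ± 317 CPM in the Hmx3; Hmx2 line (SD, n = 6 each) and 3381 ± 266 against 3489 ± 290 CPM in the triple line (SD, n = 3 each). In all 3 lines the sums of knockouts and controls overlapped.

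The cell cycle genes differed little between knockouts and controls in each of the 3 lines, and 1 gene in 1 line passed the test. In the Dmrt2 comparison 32 of 40 members lay above 0, with a median log2 fold change of 0.09 (knockout minus control) against −0.0021 over all genes tested. Cenpe, which encodes a kinetochore motor, rose, and the other 39 members did not pass the test (edgeR quasi-likelihood, Benjamini-Hochberg adjusted p under 0.05 over all genes). Over all 19807 genes the same rule called 0.444%. DESeq2 called 2 members, Cenpe and Cenpf, and 2.43% of all genes. Before adjustment 8 members had p under 0.05, all higher, where 6.99% of all genes were higher and 5.34% lower at that level. All 3 knockouts lay above all 3 controls for 4 members (Cenpe, Cenpf, Bub1 and Kif20a) and below them for 0, where 9.61% and 8.23% of all genes did so. Leaving out 1 library moved the median from 0.051 (without control 1) to 0.15 (without control 2) and the number at an unadjusted p under 0.05 from 4 (without knockout 2) to 18 (without control 2).

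In the libraries labelled triple knockout the shift ran the other way, with 34 of 40 members below 0 and a median of −0.064 against 0.001 over all genes. edgeR called 0 members, where it called 1.03% of all 21537 genes. DESeq2 called 3 members, where it called 5.93% of all 17423 genes, so that share of the members lies near the share of all genes. Before adjustment 11 members had p under 0.05, all lower, against 8.63% of all genes lower and 9.29% higher. All 3 libraries so labelled lay below all 3 controls for 8 members (Rrm2, Ccna2, Ccnb1, Ccnb2, Cdk1, Aurka, Nusap1 and Ube2c) and above them for 0, where 12.4% and 11.9% of all genes did so. Leaving out 1 library moved the median from −0.025 (without control 3) to −0.14 (without knockout 2 or control 1) and the number at an unadjusted p under 0.05 from 5 (without knockout 3) to 16 (without control 1). In the Hmx3; Hmx2 comparison the members were spread evenly about 0, 21 above and 19 below, with a median of 0.002. There edgeR and DESeq2 both called 0 members, and 0 had an unadjusted p under 0.05. Over all genes edgeR called 0.021% of 19050 and DESeq2 0.0147%, and 2.2% were higher and 2.73% lower before adjustment. The 40 members varied together from library to library, so their counts are not counts of independent genes. In the Dmrt2 line Y-linked genes were expressed in 1 of 3 knockouts (knockout 1) and 3 of 3 controls. With a term for them the Dmrt2 median was −0.018 and 18 of 40 members lay above 0. In that fit knockout 1 alone stands against the 3 controls, so it cannot separate sex from the swing of that library. Knockout 1 had 5 of 40 members above the mean of the Dmrt2 knockouts.

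**Figure D1:**
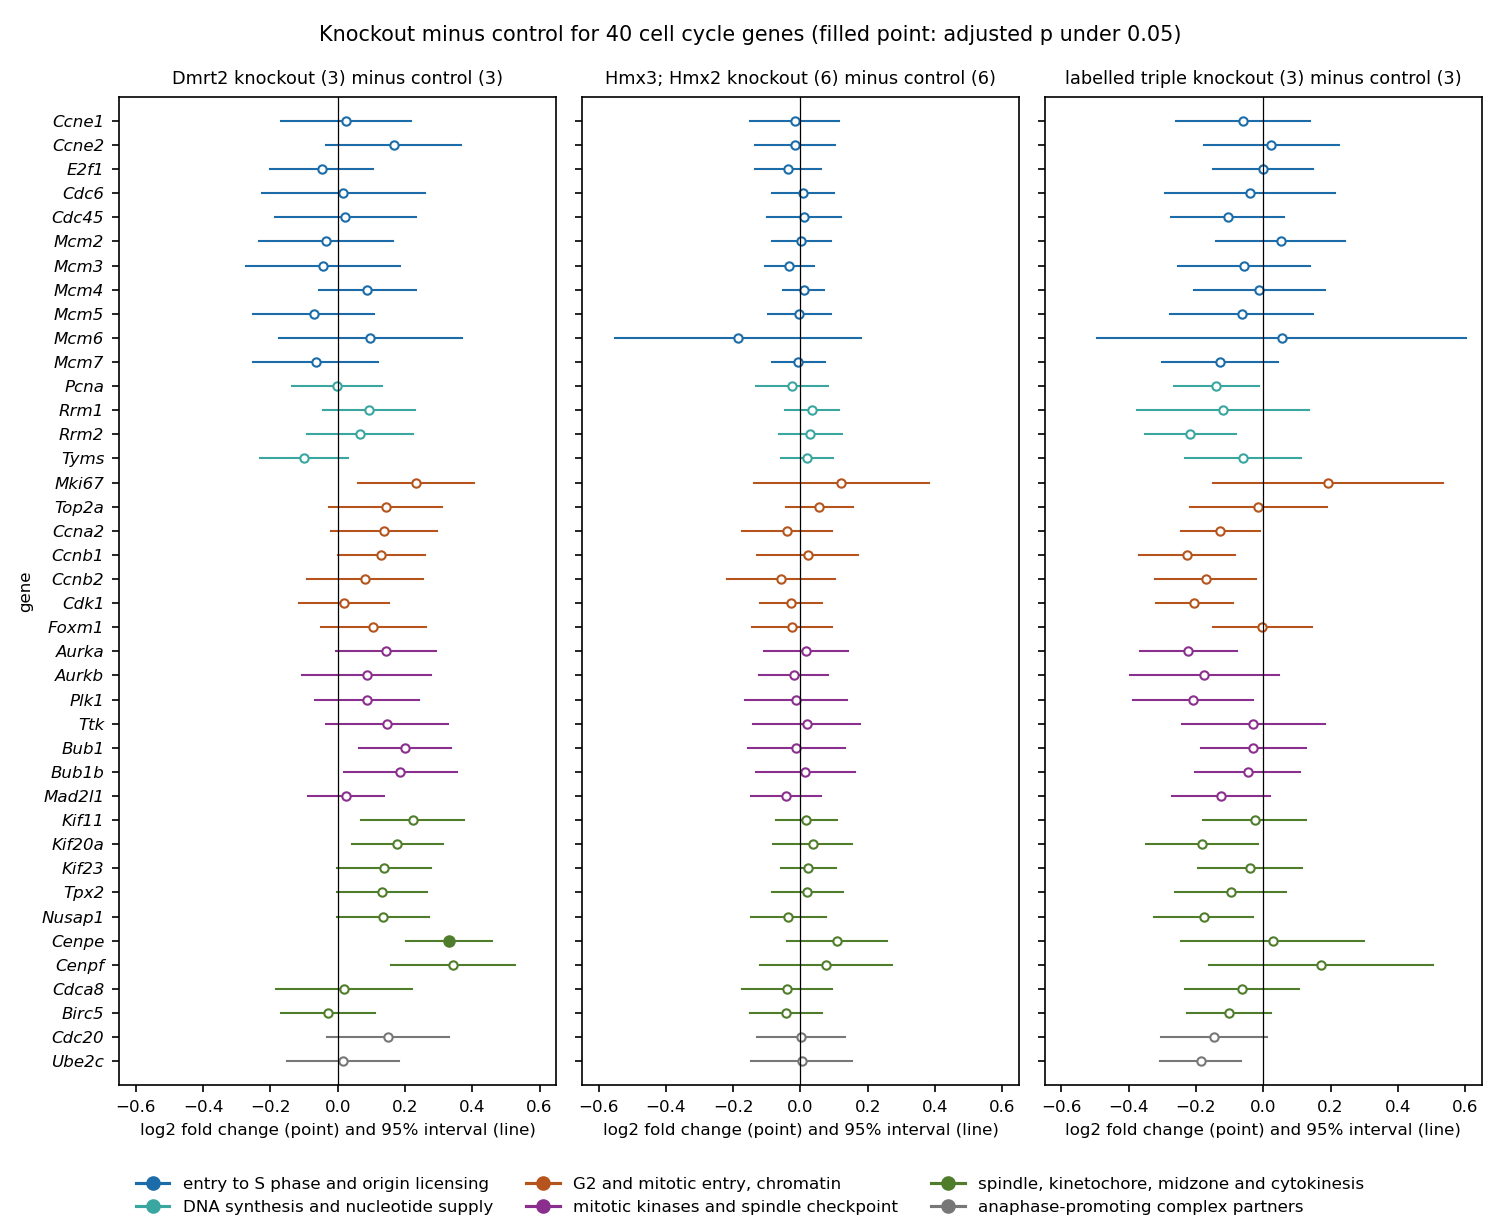
Log2 fold change (knockout minus control, point) with its 95% interval (line) for the 40 members in the 3 comparisons, coloured by role; a filled point marks an adjusted p under 0.05. Cenpe in the Dmrt2 comparison is the only filled point; mitotic genes lie mostly right of 0 in that panel, near 0 in the Hmx3; Hmx2 panel and mostly left of 0 in the panel of libraries labelled triple knockout.

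Genes of S phase entry and origin licensing lay nearer 0, by their medians, than the mitotic genes in the Dmrt2 and triple comparisons. Of the 11 members with this role (Ccne1, Ccne2, E2f1, Cdc6, Cdc45 and 6 MCM genes), 0 were called and 0 had an unadjusted p under 0.05 in any of the 3 comparisons by edgeR. Their median log2 fold changes were 0.017, −0.0061 and −0.040 in the Dmrt2, Hmx3; Hmx2 and triple comparisons. In the values that follow, 3 libraries are given in the order of replicates 1, 2 and 3, and 6 libraries as lowest, median and highest. Those 6 libraries span both tables of their line, and some genes differ in level between the tables, as given with Cdc20 below. The lowest adjusted p among these 11 genes was 0.502, 0.958 and 0.41 in the 3 comparisons.

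Ccne1 and Ccne2 encode the E-type cyclins that activate Cdk2 at the start of S phase. Dmrt2 knockouts had 21.5, 24.1 and 22.6 CPM of Ccne1, and their controls 21.5, 25.2 and 20.3 CPM. Ccne1 in Hmx3; Hmx2 knockouts was at 18.1, 21.03 and 27.4 CPM, and in controls at 19.3, 21.3 and 24.9 CPM. For Ccne1 the libraries labelled triple knockout gave 18.7, 18.97 and 19.6 CPM and their controls 18.05, 18.8 and 22.8 CPM. All groups of Ccne1 overlapped, with log2 fold changes of 0.025 ± 0.089, −0.018 ± 0.062 and −0.059 ± 0.091 (SE) in the 3 comparisons. Ccne2 in the Dmrt2 line was at 17.6, 15.1 and 17.75 CPM in knockouts and 15.7, 15.5 and 13.9 CPM in controls. Across Hmx3; Hmx2 knockouts Ccne2 was at 11.9, 12.2 and 13.6 CPM, and across controls at 11.7, 12.7 and 13.9 CPM. Ccne2 in libraries labelled triple knockout was at 14.9, 17.7 and 16.3 CPM, against 15.4, 15.05 and 17.6 CPM. Ccne2 was the highest of the 11 genes in the Dmrt2 comparison, yet knockout replicate 2 lay inside the control range, and the differences were 0.17 ± 0.092, −0.017 ± 0.056 and 0.024 ± 0.092.

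E2f1, an activator of S phase genes and itself an E2F target, lay at nearly the same level in both groups of the triple comparison. E2f1 lay at 37.1, 36.7 and 38.1 CPM in Dmrt2 knockouts and 35.3, 42.2 and 38.2 CPM in their controls. In Hmx3; Hmx2 knockouts E2f1 had 32.1, 35.2 and 44.7 CPM, against 33.3, 36.65 and 43.1 CPM. E2f1 stood in libraries labelled triple knockout at 30.1, 34 and 31.7 CPM, and their controls at 29.8, 33.9 and 32.2 CPM. The groups overlapped in each line, and the differences were −0.048 ± 0.071, −0.037 ± 0.046 and −0.0003 ± 0.068.

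Mcm2 stands for the MCM helicase, whose 6 subunits work as a ring. Dmrt2 knockouts had 124.4, 148.5 and 150.2 CPM of Mcm2, and their controls 130.3, 160.1 and 143.1 CPM. Mcm2 in Hmx3; Hmx2 knockouts was at 144.4, 166.2 and 198.5 CPM, and in controls at 147.8, 161.9 and 186.9 CPM. For Mcm2 the libraries labelled triple knockout gave 145.5, 161.3 and 128.8 CPM and their controls 128.8, 141 and 150.4 CPM. Knockouts and controls of Mcm2 overlapped in each line, with differences of −0.035 ± 0.090, 0.0024 ± 0.042 and 0.052 ± 0.085. Mcm3, Mcm4, Mcm5 and Mcm7 ranged from −0.071 to 0.089 in the Dmrt2 comparison, −0.033 to 0.0095 in the Hmx3; Hmx2 comparison and −0.13 to −0.012 in the triple comparison. Mcm6 in the Dmrt2 line was at 149.9, 197.8 and 174.3 CPM in knockouts and 177.4, 140.5 and 170.1 CPM in controls. Across Hmx3; Hmx2 knockouts Mcm6 was at 136.7, 171 and 221.4 CPM, and across controls at 142.6, 214.9 and 224.9 CPM. Mcm6 in libraries labelled triple knockout was at 198.3, 141.4 and 153.5 CPM, against 122.1, 173.3 and 179.5 CPM. Pooled over the groups, the SD of Mcm6 was 0.27 log2 units against 0.12 for Mcm2, though in the Dmrt2 controls the 2 genes spread alike, and the differences of Mcm6 carried the widest errors of the set (0.10 ± 0.12, −0.19 ± 0.16 and 0.054 ± 0.21). Cdc6, which loads the helicase, and Cdc45, which activates it, lay between −0.11 and 0.023 in all 3 comparisons.

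All 4 genes of DNA synthesis lay below 0 in the libraries labelled triple knockout, without passing the adjusted test. Of these (Pcna, Rrm1, Rrm2 and Tyms), 0 were called in any comparison, and Pcna and Rrm2 had an unadjusted p under 0.05 in the triple comparison. The role medians were 0.032, 0.024 and −0.13. Pcna lay at 95.5, 99.5 and 106.7 CPM in Dmrt2 knockouts and 94.7, 105.8 and 101.8 CPM in their controls. In Hmx3; Hmx2 knockouts Pcna had 109.5, 125.5 and 153.5 CPM, against 118.2, 126.9 and 137.4 CPM. Pcna stood in libraries labelled triple knockout at 100.2, 105.6 and 102 CPM, and their controls at 103.4, 116.6 and 119.1 CPM. Pcna, the sliding clamp of the polymerases, overlapped in each line, the highest library labelled triple knockout lying just above the lowest control, and differed by −0.0027 ± 0.061, −0.026 ± 0.050 and −0.14 ± 0.057.

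Rrm2 is the regulated subunit of ribonucleotide reductase, which makes deoxynucleotides. Dmrt2 knockouts had 101.1, 111.7 and 116.9 CPM of Rrm2, and their controls 95.6, 113 and 106.2 CPM. Rrm2 in Hmx3; Hmx2 knockouts was at 93.4, 103.1 and 118.2 CPM, and in controls at 90.7, 100.6 and 113.8 CPM. For Rrm2 the libraries labelled triple knockout gave 92.03, 92.1 and 89.2 CPM and their controls 99.6, 101.1 and 116.7 CPM. All 3 libraries labelled triple knockout lay below all 3 controls, while both other lines overlapped. The log2 fold changes were 0.067 ± 0.072, 0.029 ± 0.044 and −0.22 ± 0.061, with an adjusted p of 0.119 in the triple comparison by edgeR and 0.040 by DESeq2. Tyms makes thymidylate and was the lowest member of the Dmrt2 comparison. Tyms in the Dmrt2 line was at 49.5, 48.6 and 52.3 CPM in knockouts and 52.3, 57.2 and 51.7 CPM in controls. Across Hmx3; Hmx2 knockouts Tyms was at 42.8, 48.5 and 57.1 CPM, and across controls at 43.96, 48.75 and 54.4 CPM. Tyms in libraries labelled triple knockout was at 43.3, 47.4 and 45.8 CPM, against 42.1, 47.4 and 52.97 CPM. Of the Dmrt2 knockouts, 1 lay inside the range of Tyms in the controls, and the differences were −0.10 ± 0.06, 0.020 ± 0.037 and −0.061 ± 0.078. Rrm1, the large reductase subunit, lay at 0.093 ± 0.062, 0.035 ± 0.038 and −0.12 ± 0.11.

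Genes of G2 and mitotic entry lay on opposite sides of 0 in the Dmrt2 and triple comparisons. All 7 (Mki67, Top2a, Ccna2, Ccnb1, Ccnb2, Cdk1 and Foxm1) lay above 0 in Dmrt2 knockouts, with a median of 0.13, and 6 of 7 lay below 0 in libraries labelled triple knockout, with a median of −0.13. The Hmx3; Hmx2 median was −0.025. edgeR called 0 of them in any comparison. Unadjusted p under 0.05 was reached by Mki67 and Ccnb1 in the Dmrt2 comparison (both higher), by Ccna2, Ccnb1, Ccnb2 and Cdk1 in the triple comparison (all lower) and by 0 in the Hmx3; Hmx2 comparison.

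Mki67 encodes the Ki-67 protein that coats mitotic chromosomes and is the usual marker of cycling cells. Mki67 lay at 480.4, 518.5 and 437.1 CPM in Dmrt2 knockouts and 386.6, 451.6 and 384 CPM in their controls. In Hmx3; Hmx2 knockouts Mki67 had 254.3, 327.7 and 394.5 CPM, against 245.2, 321.6 and 345.2 CPM. Mki67 stood in libraries labelled triple knockout at 328.7, 417.6 and 320.7 CPM, and their controls at 306.1, 269.3 and 358.2 CPM. It was the highest member of the set in the Hmx3; Hmx2 and triple comparisons, though the groups overlapped in each line. Its log2 fold changes were 0.23 ± 0.079, 0.12 ± 0.12 and 0.19 ± 0.14, so it stood above 0 in the triple comparison where most mitotic genes stood below. Mki67 lies 4.13 Mb from Hmx2 on chromosome 7, and its level followed the long genes of each library, as shown further on. Dmrt2 knockouts had 307.5, 354.9 and 334.4 CPM of Top2a, and their controls 273.8, 333.1 and 296 CPM. Top2a in Hmx3; Hmx2 knockouts was at 258.5, 276.4 and 309.5 CPM, and in controls at 232.9, 269 and 308.7 CPM. For Top2a the libraries labelled triple knockout gave 268.7, 304.3 and 241.4 CPM and their controls 266.7, 254.9 and 301.2 CPM. Top2a, the topoisomerase that untangles sister chromatids, overlapped in each line and differed by 0.14 ± 0.077, 0.056 ± 0.047 and −0.015 ± 0.090.

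Ccnb1 encodes cyclin B1, the partner that carries Cdk1 into mitosis. Ccnb1 in the Dmrt2 line was at 55.1, 61.9 and 60.3 CPM in knockouts and 52.2, 55.15 and 54.6 CPM in controls. Across Hmx3; Hmx2 knockouts Ccnb1 was at 51.3, 63.8 and 76.65 CPM, and across controls at 52.1, 61.8 and 81.9 CPM. Ccnb1 in libraries labelled triple knockout was at 50.25, 54.1 and 49.55 CPM, against 56.1, 58.3 and 65.8 CPM. All 3 libraries labelled triple knockout lay below their controls, and Ccnb1 was the lowest member of the triple comparison. Of the Dmrt2 knockouts, only the lowest reached the control range. The differences of Ccnb1 were 0.13 ± 0.059, 0.021 ± 0.069 and −0.23 ± 0.066, with an adjusted p of 0.124 in the triple comparison by edgeR and 0.045 by DESeq2. Cdk1 lay at 73.2, 77.4 and 76.2 CPM in Dmrt2 knockouts and 68.9, 79.8 and 75.2 CPM in their controls. In Hmx3; Hmx2 knockouts Cdk1 had 61.8, 72.9 and 76.3 CPM, against 64.5, 71.3 and 82.98 CPM. Cdk1 stood in libraries labelled triple knockout at 58.7, 58.5 and 57.6 CPM, and their controls at 63.7, 67.4 and 70.2 CPM. Cdk1, the mitotic kinase itself, was nearly level over the 3 libraries labelled triple knockout, all below the lowest control. Its differences were 0.019 ± 0.061, −0.029 ± 0.044 and −0.20 ± 0.052, and its adjusted p of 0.0894 in the triple comparison was the lowest of the 40 members there by edgeR (0.028 by DESeq2). In the same order of comparisons Ccnb2, another B-type cyclin gene, lay at 0.082 ± 0.079, −0.057 ± 0.073 and −0.17 ± 0.069 and Ccna2, the cyclin A gene, at 0.14 ± 0.072, −0.040 ± 0.062 and −0.13 ± 0.053.

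Foxm1, the activator of late cell cycle genes, lay near 0 in the triple comparison, where the cyclin genes lay below 0. Dmrt2 knockouts had 91.3, 100.8 and 104.7 CPM of Foxm1, and their controls 85.7, 101.1 and 89.1 CPM. Foxm1 in Hmx3; Hmx2 knockouts was at 72.7, 89.1 and 100.3 CPM, and in controls at 79.1, 89.65 and 103.5 CPM. For Foxm1 the libraries labelled triple knockout gave 83.4, 92.9 and 83.8 CPM and their controls 79.3, 87.4 and 93.9 CPM. All groups of Foxm1 overlapped, and the differences were 0.11 ± 0.072, −0.025 ± 0.056 and −0.0026 ± 0.068.

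**Figure D2:**
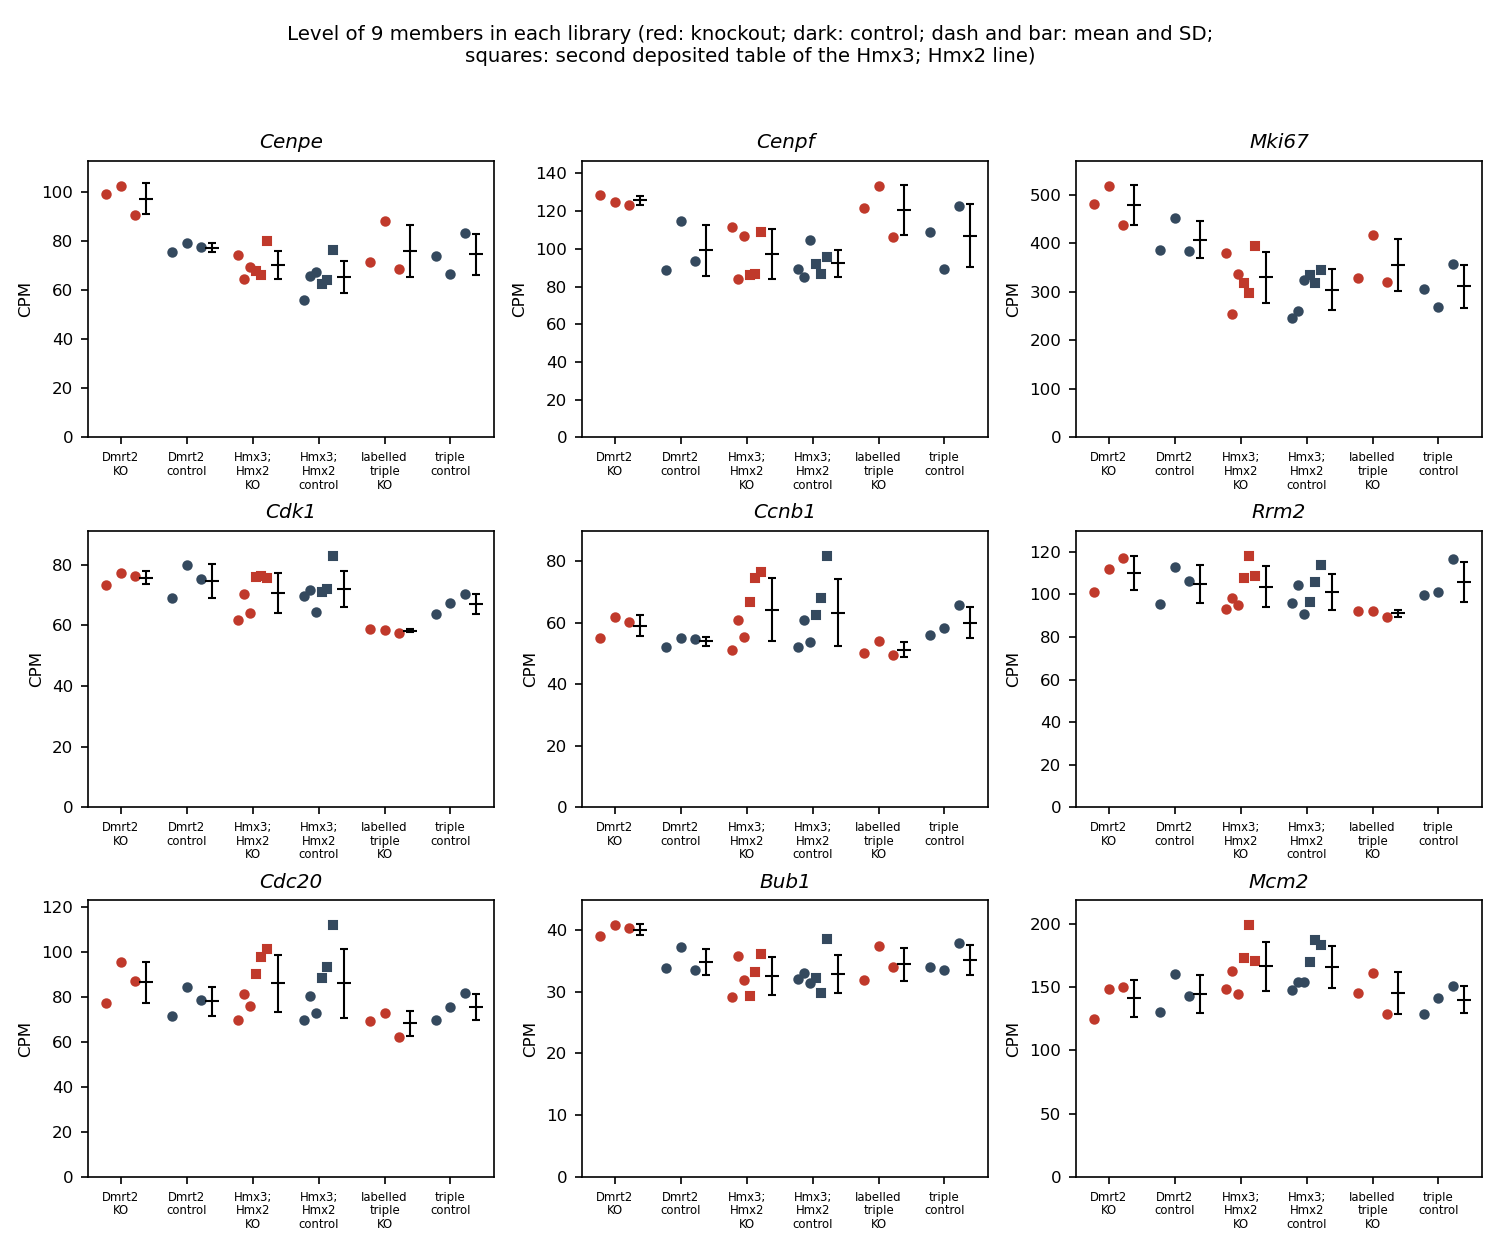
Level in CPM of 9 members in each of 24 libraries by group (red, knockout; dark, control; squares, second deposited table of the Hmx3; Hmx2 line), with group mean and SD. Cenpe and Bub1 lie above the controls in all 3 Dmrt2 knockouts, and Cdk1, Ccnb1 and Rrm2 lie below the controls in all 3 libraries labelled triple knockout.

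The mitotic kinases and checkpoint genes followed the cyclins in direction. All 7 (Aurka, Aurkb, Plk1, Ttk, Bub1, Bub1b and Mad2l1) lay above 0 in the Dmrt2 comparison (median 0.14) and all 7 below 0 in the triple comparison (median −0.12), while the Hmx3; Hmx2 median was −0.012. edgeR called 0 in any comparison, and unadjusted p under 0.05 was reached by Bub1 and Bub1b (higher) in the Dmrt2 comparison and by Aurka and Plk1 (lower) in the triple comparison. Aurka, the Aurora A kinase of the spindle poles, lay at 39.6 ± 2.565 CPM in triple controls and 33.98 ± 2.205 CPM in libraries labelled triple knockout (SD, n = 3 each) without overlap (log2 −0.22 ± 0.066 SE, adjusted p = 0.134 by edgeR). Bub1, a kinase of the spindle checkpoint, lay at 34.8 ± 2.08 CPM in Dmrt2 controls and 39.99 ± 0.875 CPM in knockouts (SD, n = 3 each) without overlap (log2 0.20 ± 0.063 SE, adjusted p = 0.222 by edgeR).

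Aurkb in the Dmrt2 line was at 52.9, 59.75 and 61.7 CPM in knockouts and 47.8, 59.97 and 56.5 CPM in controls. Across Hmx3; Hmx2 knockouts Aurkb was at 50.2, 60.8 and 70.01 CPM, and across controls at 52.8, 60.8 and 73.7 CPM. Aurkb in libraries labelled triple knockout was at 54.3, 52.9 and 46.6 CPM, against 49.6, 59.8 and 64.2 CPM. Aurkb, the Aurora kinase of the chromosomal passenger complex, overlapped in all lines and differed by 0.086 ± 0.086, −0.021 ± 0.048 and −0.17 ± 0.10. Plk1 lay at 71.99, 81.5 and 73.35 CPM in Dmrt2 knockouts and 66.1, 78.2 and 69.2 CPM in their controls. In Hmx3; Hmx2 knockouts Plk1 had 53.8, 69.15 and 87.2 CPM, against 50.4, 70.3 and 99.5 CPM. Plk1 stood in libraries labelled triple knockout at 57.4, 62.4 and 50.65 CPM, and their controls at 60.5, 66.25 and 70.1 CPM. Plk1, the Polo-like kinase of mitotic entry and spindle assembly, had 1 library labelled triple knockout inside the control range and differed by 0.087 ± 0.071, −0.014 ± 0.070 and −0.21 ± 0.080. Dmrt2 knockouts had 84.4, 98.8 and 102.3 CPM of Bub1b, and their controls 77.6, 89.5 and 83.9 CPM. Bub1b in Hmx3; Hmx2 knockouts was at 79.7, 96.3 and 106.3 CPM, and in controls at 77.6, 93.7 and 112.4 CPM. For Bub1b the libraries labelled triple knockout gave 89.1, 98.2 and 79.9 CPM and their controls 87.3, 93.7 and 94.9 CPM. Bub1b, which encodes the checkpoint protein BubR1, overlapped in each line and differed by 0.19 ± 0.077, 0.015 ± 0.068 and −0.046 ± 0.071. Ttk, the checkpoint kinase Mps1, and Mad2l1, the Cdc20 inhibitor Mad2, lay between −0.12 and 0.15 in the 3 comparisons.

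Spindle, kinetochore and cytokinesis genes held the only call. Of the 9 members (Kif11, Kif20a, Kif23, Tpx2, Nusap1, Cenpe, Cenpf, Cdca8 and Birc5), 1 rose in the Dmrt2 comparison, and 0 passed in the other comparisons by edgeR, where 0 (Hmx3; Hmx2) and 2 (triple: Kif20a and Nusap1, both lower) had an unadjusted p under 0.05. The medians were 0.14, 0.021 and −0.064. Beside Cenpe, Cenpf, Kif11 and Kif20a also had an unadjusted p under 0.05 in the Dmrt2 comparison, all higher.

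Cenpe encodes CENP-E, the kinesin that moves chromosomes to the spindle equator. Cenpe in the Dmrt2 line was at 98.8, 102.3 and 90.3 CPM in knockouts and 75.2, 79.1 and 77.2 CPM in controls. Across Hmx3; Hmx2 knockouts Cenpe was at 64.4, 68.5 and 79.8 CPM, and across controls at 55.9, 64.9 and 76.1 CPM. Cenpe in libraries labelled triple knockout was at 71.4, 88.1 and 68.4 CPM, against 73.6, 66.65 and 83.3 CPM. All 3 Dmrt2 knockouts lay above the highest control for Cenpe, and in both other lines the groups overlapped. The difference was 0.33 ± 0.058 SE on the log2 scale (95% interval 0.20 to 0.46, 25.8% higher, edgeR adjusted p = 0.0338, higher in 3 of 3 knockouts). In the other lines it was 0.11 ± 0.068 and 0.028 ± 0.12. The call ended without knockout replicate 1 (edgeR adjusted p = 0.104), knockout replicate 2 (0.271) or control replicate 3 (0.0792). It also ended with a correction for exon length (0.124) and in the joint fit of all 24 libraries (0.173). With the term for Y-linked genes the log2 fold change was 0.36. In that fit knockout 1 alone stands against the controls, so it cannot show whether the call holds. Over all alternatives the log2 fold change of Cenpe stayed between 0.26 and 0.38. Cenpe lies on chromosome 3, which held 18 of the 88 genes called in this comparison, or 20.5%, against 5.12% of the genes tested. Whether its difference comes from the knockout or from that chromosome was not tested.

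Cenpf encodes a large kinetochore protein of late G2 and mitosis. Cenpf lay at 128.5, 125.1 and 123.4 CPM in Dmrt2 knockouts and 89.01, 114.7 and 93.7 CPM in their controls. In Hmx3; Hmx2 knockouts Cenpf had 83.8, 96.7 and 111.6 CPM, against 85.3, 90.6 and 104.9 CPM. Cenpf stood in libraries labelled triple knockout at 121.9, 133.4 and 106.5 CPM, and their controls at 108.9, 89.6 and 122.7 CPM. All 3 Dmrt2 knockouts lay above all 3 controls, and the other lines overlapped. Cenpf was the highest member of the Dmrt2 comparison, and its differences were 0.34 ± 0.084, 0.076 ± 0.088 and 0.17 ± 0.14 (edgeR adjusted p = 0.118 in the Dmrt2 comparison, 0.0062 by DESeq2, and 0.0051 by edgeR without control replicate 2). Kif11, the motor that pushes spindle poles apart, lay at 0.22 ± 0.070, 0.017 ± 0.043 and −0.026 ± 0.070 and Kif20a, a midzone kinesin, at 0.18 ± 0.063, 0.036 ± 0.055 and −0.18 ± 0.075. Birc5, which encodes survivin, and Cdca8, which encodes borealin, both of the passenger complex, lay between −0.10 and 0.019 in all comparisons. Kif23, a motor of the midzone, lay at 0.14 ± 0.065, 0.024 ± 0.039 and −0.04 ± 0.070, Tpx2, an activator of Aurora A, at 0.13 ± 0.061, 0.021 ± 0.049 and −0.10 ± 0.074 and Nusap1, a microtubule-binding protein, at 0.14 ± 0.062, −0.036 ± 0.052 and −0.18 ± 0.067.

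Cdc20 and Ube2c, the activator and the ubiquitin-conjugating enzyme that let the anaphase-promoting complex end mitosis, were both below 0 in the triple comparison, and edgeR called 0 of the 2 in any comparison. Dmrt2 knockouts had 77.2, 95.3 and 86.97 CPM of Cdc20, and their controls 71.2, 84.15 and 78.5 CPM. Cdc20 in Hmx3; Hmx2 knockouts was at 69.5, 85.65 and 101.2 CPM, and in controls at 69.7, 84.2 and 111.6 CPM. For Cdc20 the libraries labelled triple knockout gave 69.4, 72.8 and 62.3 CPM and their controls 69.5, 75.4 and 81.45 CPM. Cdc20 overlapped in each line and differed by 0.15 ± 0.082, 0.0016 ± 0.061 and −0.15 ± 0.072. In the Hmx3; Hmx2 line its values split by deposited table, at 69.5 to 81.4 CPM in replicates 1 to 3 and 88.1 to 111.6 CPM in replicates 4 to 6, in knockouts and controls alike. Plk1 split likewise, at 50.41 to 63.15 and 77.44 to 99.5 CPM, as did Mcm5, Ccnb1, Ccnb2 and Aurkb, while Ccne2 and Mki67 overlapped between the tables. For the genes that split, the spread over 6 libraries includes this step, and overlap of the groups is across both tables. Ube2c lay below the control range in all 3 libraries labelled triple knockout, at 75.4, 78.5 and 70.3 against 82.9, 83.6 and 88.6 CPM (log2 −0.19 ± 0.055 SE, edgeR adjusted p = 0.134). Its other differences were 0.017 ± 0.076 and 0.0031 ± 0.069.

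The opposite signs of the Dmrt2 and triple comparisons were tested as differences of effects in a joint fit of the 24 libraries. For the triple minus the Dmrt2 effect, 36 of 40 members lay below 0, with a median of −0.18 against −0.012 over all genes. An unadjusted p under 0.05 was reached by 11 members and by 2458 of all 22101 genes. edgeR called 0 of the 40 members, as did DESeq2, where edgeR called 0.33% of all 22101 genes and DESeq2 1.37%. The lowest adjusted p was that of Aurka (−0.37 ± 0.11 SE, adjusted p = 0.2). Ccnb1 differed by −0.36 ± 0.12 (adjusted p = 0.25), Rrm2 by −0.29 ± 0.10 (0.279), Cdk1 by −0.23 ± 0.085 (0.307) and Cenpe by −0.31 ± 0.15 (0.458). For the triple minus the Hmx3; Hmx2 effect 33 members lay below 0 (median −0.082). Of the 40 members 5 had an unadjusted p under 0.05, near the share of all genes (2862 of 22101). By edgeR or DESeq2 0 members were called, where edgeR called 0.837% of all genes and DESeq2 3.11%. Rrm2 led with −0.25 ± 0.089 (adjusted p = 0.197). For the Dmrt2 minus the Hmx3; Hmx2 effect 34 members lay above 0 (median 0.10). Of the 40 members 1 had an unadjusted p under 0.05 (Kif11, edgeR adjusted p = 0.651), below the share of all genes (1635 of 22101). By edgeR or DESeq2 0 members were called, against 0.127% of all genes by edgeR and 0.498% by DESeq2. These 3 differences share their groups. A difference between the lines in these genes was not detectable over the spread of the libraries.

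Other genes of the same machinery showed calls at 2 places. Of 22 genes of the anaphase-promoting complex and mitotic exit, 1 rose in Dmrt2 knockouts: Anln, which encodes anillin of the cleavage furrow, went from 59.4 ± 0.22 to 72.3 ± 3.24 CPM (SD, n = 3; log2 0.28 ± 0.053 SE, edgeR adjusted p = 0.0432). Of 16 spindle checkpoint and kinetochore genes, 1 rose in Hmx3; Hmx2 knockouts: Bub3, a checkpoint partner of Bub1 and BubR1, at 121 ± 12.1 against 105 ± 11.2 CPM (SD, n = 6; 0.21 ± 0.026, edgeR adjusted p = 0.00176). Those SDs of Bub3 span both deposited tables. In replicates 1 to 3 it lay at 109.7 to 111.1 CPM in knockouts and 93.6 to 95.3 CPM in controls. In replicates 4 to 6 it lay at 128.1 to 134.7 and 111 to 117.1 CPM. Bub3 lies beside Hmx2 on chromosome 7, and in the Dmrt2 and triple comparisons it differed by 0.028 and 0.13 without a call. Over all genes edgeR called 0.444% in the Dmrt2 comparison and 0.021% in the Hmx3; Hmx2 comparison. Whether the calls of Anln and Bub3 hold under the alternatives used for Cenpe was not examined. edgeR called 0 genes of the other lists: 24 of the replication origin and fork, 25 G1 cyclin, E2F and RB family genes, and 18 tested CDK inhibitors and p53 targets.

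In the Dmrt2 comparison these lists held 1, 2, 6, 2 and 0 genes that were higher at an unadjusted p under 0.05. They held 0, 0, 0, 0 and 1 that were lower. The order is checkpoint and kinetochore (16 genes), replication (24), anaphase-promoting complex (22), G1 (25), and CDK inhibitors and p53 targets (18). Of all genes 6.99% were higher and 5.34% lower at that level, and apart from the 6 of 22 these counts lie near those shares. Their medians were 0.0094, −0.027, 0.065, 0.0083 and −0.049. Knl1, a kinetochore scaffold (0.33 ± 0.071 SE, edgeR adjusted p = 0.0799), Pola1, a subunit of DNA polymerase alpha (0.19), and Rbl1, the RB relative p107 (0.21), were the highest of their lists, and Mad1l1 (−0.087), Fen1 (−0.16), Pttg1, which encodes securin (−0.15), and Lin37 (−0.096) the lowest. Among the CDK inhibitors and p53 targets Mdm2 was highest (0.10) and Eda2r lowest (−0.29).

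In the triple comparison the counts in that order were 0, 1, 0, 1 and 1 higher and 3, 1, 3, 2 and 1 lower, beside 9.29% and 8.63% of all genes, with medians of −0.036, −0.066, −0.025, −0.024 and −0.046. The lowest of each list were Haspin, a histone kinase of mitosis (−0.33), Gmnn, the licensing inhibitor geminin (−0.24), Fbxo5, an inhibitor of the anaphase-promoting complex (−0.25), Rbl2, the RB relative p130 (−0.28 ± 0.060 SE, edgeR adjusted p = 0.0547), and Cdkn2b (−0.43, at 0.639 against 0.863 CPM). The highest were Bub3, Cdc7 (0.18), Pkmyt1 (0.14), Ccnd2, the cyclin D2 gene (0.16), and Phlda3 (0.19). In the Hmx3; Hmx2 comparison the 5 lists held 1, 0, 0, 1 and 2 higher and 0, 2, 0, 0 and 1 lower, beside 2.2% and 2.73% of all genes, with extremes at Spc24 (−0.086), Gins3 (0.12), Gmnn (−0.10), Anapc1 (0.059), Pkmyt1 (−0.10), Cdk6 (0.12), Lin37 (−0.070), Phlda3 (−0.21) and Sesn2 (0.16). Cdkn1a, the p21 inhibitor, lay at −0.076, 0.095 and 0.088 in the Dmrt2, Hmx3; Hmx2 and triple comparisons, and Cdkn1c, the p57 inhibitor, at −0.077, −0.0006 and −0.15. Ccnd1, the cyclin D1 gene, lay at −0.073, −0.017 and −0.016, and none of these 3 genes was called.

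The members varied together from one library to the next, more than other genes of like level and in knockouts and controls alike. The SD within groups had a median of 0.12 log2 units over the 40 members, against 0.077 over 9656 genes in the same range of levels (14.3 to 353 CPM), and all 40 members lay above that median. As deviations from the mean of their own group and table, which sum to 0 within each such group, 39 of 40 members were high in Dmrt2 control 2, 40 in triple control 3, 38 in the library labelled triple knockout 2 and 37 in Hmx3; Hmx2 control 6. In triple control 1 only 1 member was high, in Hmx3; Hmx2 knockout 4 there were 2, and in Dmrt2 knockout 1 and Dmrt2 control 1 there were 5. Of all genes with a mean of at least 5 CPM, 43.2% to 60.3% were high in a library. These swings of whole libraries are as large as the medians of the comparisons: the median deviation of the members ran from −0.10 in Dmrt2 control 1 to 0.13 in Hmx3; Hmx2 control 6.

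**Figure D3:**
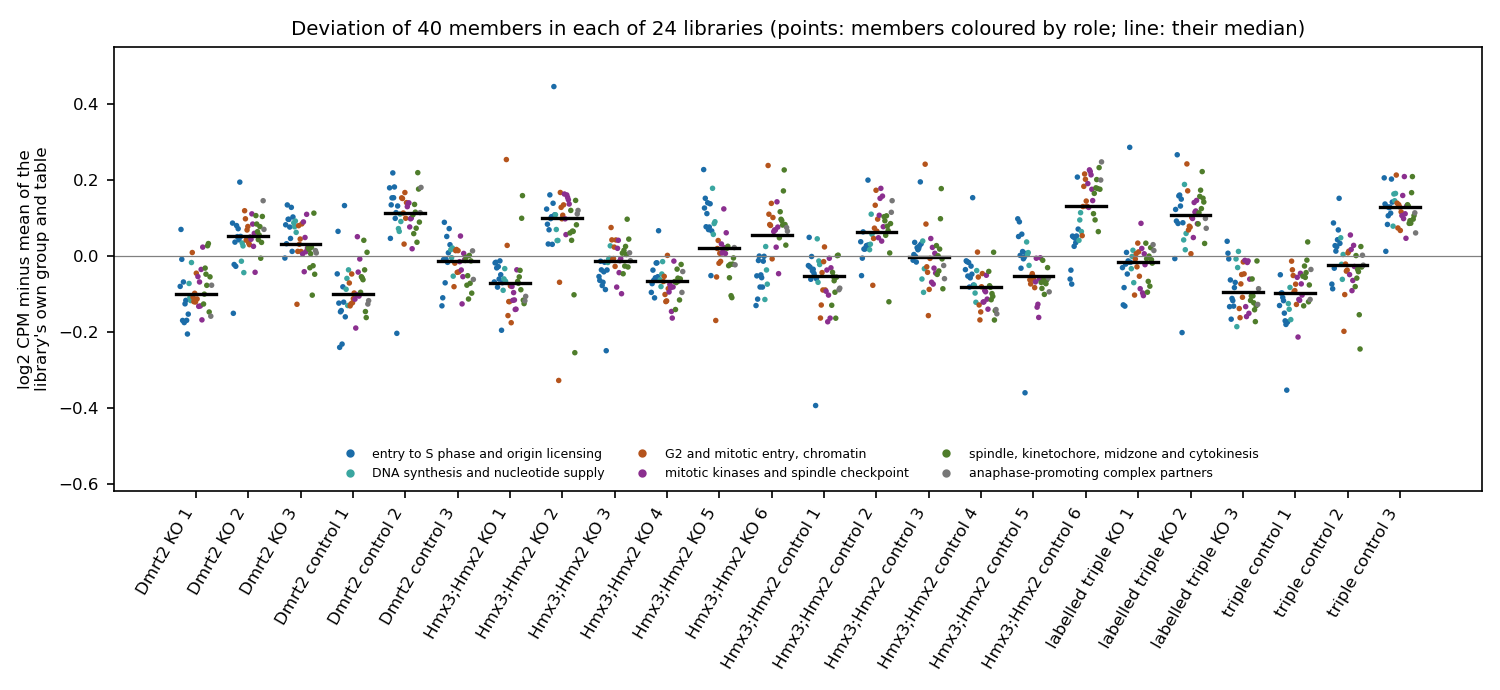
Deviation of the 40 members (points, coloured by role, log2 CPM minus the mean of the library's own group and deposited table) in each of 24 libraries, with the median of the 40 as a line. The points of a library lie mostly on one side of 0 in knockouts and in controls, for example above 0 in Dmrt2 control 2 and triple control 3 and below 0 in triple control 1.

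How closely each gene followed the others differed. Across the 24 libraries, as a description, Cdc20 followed the mean of the other members most closely (Pearson r = 0.94, Spearman rho = 0.93), with Kif20a and Kif11 at r = 0.92 and Rrm1 at 0.91. Ccne2 (0.22), Mki67 (0.22), Cenpf (0.28), Mcm6 (0.30) and E2f1 (0.34) followed it least. These points share their libraries, and each library also has its own depth and cell makeup. Nephron progenitor markers (Six2, Cited1, Eya1, Osr1, Meox1, Crym and Tmem100), summed, ran in the same order as the 40 members in 4 of the 8 groups of 3 libraries (by group and table) and in another order in 4. They ran alike at 231.8, 339.5 and 297.8 CPM against 3508, 4035 and 3683 CPM in Dmrt2 controls 1 to 3, and 253.2, 290.4 and 209.3 against 3350, 3661 and 3131 CPM in the libraries labelled triple knockout. The order differed in Dmrt2 knockouts, at 235.7, 259.8 and 287.7 against 3779, 4207 and 4072 CPM, and in Hmx3; Hmx2 controls 1 to 3, controls 4 to 6 and knockouts 4 to 6.

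Between knockouts and controls the nephron progenitor sums overlapped in every line, as did those of ureteric tip, erythroid, stromal and adrenal markers. Beside the lower members of the triple comparison, 6 macrophage markers summed to 82.65 to 90.01 CPM in the libraries labelled triple knockout and 93.38 to 120 CPM in their controls, without overlap. Beside the higher members of the Dmrt2 comparison, 5 endothelial markers summed to 830.2 to 846.4 CPM in knockouts and 757 to 827.5 CPM in controls, also without overlap. In the other lines the sums of both lists overlapped. Both lists are named for their lack of overlap, which is common among single genes. Of all genes, 12.4% lay below all controls in the triple comparison and 9.61% above all controls in the Dmrt2 comparison. The part of these cell types in the members' differences was not tested.

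The sex of the embryo was read from Y-linked genes, which were expressed in 14 of 24 libraries. With this as a term in the joint fit, 37 of 40 members lay below 0, towards lower levels in libraries with Y-linked expression (median −0.060 against −0.0023 over all genes). Of all genes 51.5% lay below 0. edgeR called 0 of 40 members and 0.086% of all genes. Before adjustment 2 members had p under 0.05, and the share of all genes at that level was not counted. Y-linked genes were expressed in 2 of 6 Hmx3; Hmx2 knockouts against 4 of 6 controls, and in 2 of 3 against 2 of 3 in the triple line. In the Dmrt2 line it was 1 of 3 against 3 of 3. Adding that term to the Dmrt2 fit leaves knockout 1 alone against the controls, so the part of sex in the higher members was not tested.

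Because the members move together, promoter sequence is shown for 6 of them: the closest follower of the set (Cdc20), the mitotic genes Plk1, Ccnb1 and Cdk1, and 2 that followed it little (Mki67 and Mcm6). Each line gives the 200 bases before the annotated start, 5′ to 3′ on the gene's strand, from RefSeq promoter windows of build GRCm38.p6. Capitals mark the CHR element (TTTGAA or TTTAAA), the CCAAT box (CCAAT) and the E2F core, each on either strand. The E2F core was searched as TTCCCGC, in a further form as TTCGCGC, in another as TTGCCGC and finally in the form TTGGCGC. The form TTGGCGC can overlap a CCAAT box when read on the opposite strand, as it does in Ccnb1.
Cdc20 (chr4:118437344-118437543, minus strand): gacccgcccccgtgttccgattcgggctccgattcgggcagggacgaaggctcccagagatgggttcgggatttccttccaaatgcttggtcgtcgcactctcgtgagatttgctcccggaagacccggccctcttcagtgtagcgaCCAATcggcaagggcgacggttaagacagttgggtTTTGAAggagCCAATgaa
Plk1 (chr7:122159235-122159434, plus strand): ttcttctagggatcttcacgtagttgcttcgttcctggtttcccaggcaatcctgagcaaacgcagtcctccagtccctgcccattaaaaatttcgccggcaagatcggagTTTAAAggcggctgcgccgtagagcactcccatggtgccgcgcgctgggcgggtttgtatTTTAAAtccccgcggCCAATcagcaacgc
Ccnb1 (chr13:100786487-100786686, minus strand): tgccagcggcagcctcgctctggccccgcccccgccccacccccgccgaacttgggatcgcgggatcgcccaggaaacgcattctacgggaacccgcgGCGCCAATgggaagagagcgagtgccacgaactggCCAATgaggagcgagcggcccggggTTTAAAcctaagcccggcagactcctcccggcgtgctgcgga
Cdk1 (chr10:69352913-69353112, minus strand): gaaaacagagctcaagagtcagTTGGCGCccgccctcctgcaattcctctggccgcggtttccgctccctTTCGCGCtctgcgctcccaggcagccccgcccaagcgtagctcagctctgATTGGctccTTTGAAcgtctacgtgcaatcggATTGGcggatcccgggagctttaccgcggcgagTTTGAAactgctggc
Mki67 (chr7:135716380-135716579, minus strand): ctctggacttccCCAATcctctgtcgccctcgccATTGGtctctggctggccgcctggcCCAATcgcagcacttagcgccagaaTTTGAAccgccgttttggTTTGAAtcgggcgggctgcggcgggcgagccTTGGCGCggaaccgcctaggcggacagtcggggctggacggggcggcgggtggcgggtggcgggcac
Mcm6 (chr1:128359706-128359905, minus strand): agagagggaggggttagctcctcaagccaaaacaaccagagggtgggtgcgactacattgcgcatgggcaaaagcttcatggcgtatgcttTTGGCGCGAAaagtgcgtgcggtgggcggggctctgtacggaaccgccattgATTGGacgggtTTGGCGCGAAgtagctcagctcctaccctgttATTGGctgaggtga

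Cdc20 shows 2 CCAAT boxes and 1 CHR close to the start and no E2F core in this stretch, and Plk1 has the same kinds of element with 2 CHR. Ccnb1, Cdk1 and Mki67 hold all 3 kinds of element. Mcm6 has no CHR in this stretch but 2 CCAAT boxes and 2 capital runs that each hold an E2F core on both strands. Windows of 300 bases (250 before and 50 after the start) matched 33 of the 40 members, and Aurkb, Ccna2, Ccne2, Foxm1, Kif20a, Mcm4 and Tpx2 had no window. For 21 of the 33, bases after the start were found near the start of a transcript of that gene on the same strand. For the rest the annotated start was taken as given. A CHR was found in 66.7% of the members' windows and 27.6% of all 32851 windows, a CCAAT box in 78.8% and 37.4%, both together in 60.6% and 10.7%, and an E2F core in 30.3% and 9.57%. By role, an E2F core was found in 5 of 9 windows of S phase entry, 2 of 4 of DNA synthesis and 3 of 5 of G2 and mitotic entry, and in 0 of 15 windows of the kinases, the spindle and the anaphase-promoting complex. A CHR was found in 4 of 9, 1 of 4 and 5 of 5 of the first 3 roles and in 12 of 15 of the last 3. A match describes the letters of the window and shows no binding.

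Mcm6 stood apart from its partners in the helicase ring. Within a library Mcm6 divided by the mean of Mcm2, Mcm3, Mcm4, Mcm5 and Mcm7 ranged from 0.959 to 1.64, and within the Dmrt2 controls alone it was 1.49, 0.966 and 1.28. Its SD within groups was 0.27 log2 units, the largest of the 40. High and low values occurred in knockouts and controls: 221 and 137 CPM in Hmx3; Hmx2 knockouts 2 and 3, and 225 and 152 CPM in Hmx3; Hmx2 controls 6 and 5. Of the 20 genes whose deviations were most like those of Mcm6 over 24 libraries, among 12262 genes with a mean of at least 5 CPM, 19 lay on chromosome 1 and 16 started within 10 Mb of Mcm6, a window that holds 98 of those genes. The exception was Abi1 on chromosome 2. Chromosome 1 holds 5.74% of the genes. These 20 were chosen for their likeness after the values were seen, so this is a description.

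Mcm6 itself spans chromosome 1, 128259327 to 128287401 on mm39. The nearest in pattern were Phlda3 (135693857 to 135696874, r = 0.94), Rnpep (135190450 to 135211822, r = 0.93) and, in the opposite direction, Pm20d1 (131725119 to 131749211, r = −0.93). Phlda3, a p53 target, was also an extreme of the list of CDK inhibitors and p53 targets. Pm20d1 lay at 33.8, 15.3 and 36.0 CPM in Dmrt2 knockouts where Mcm6 lay at 149.9, 198 and 174 CPM, and at 13.1, 43.9 and 27.6 CPM in Dmrt2 controls where Mcm6 lay at 177, 140.5 and 170.1 CPM. Dars, the gene beside Mcm6, moved less (r = 0.86), from 75.2 to 99.4 CPM.

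**Figure D4:**
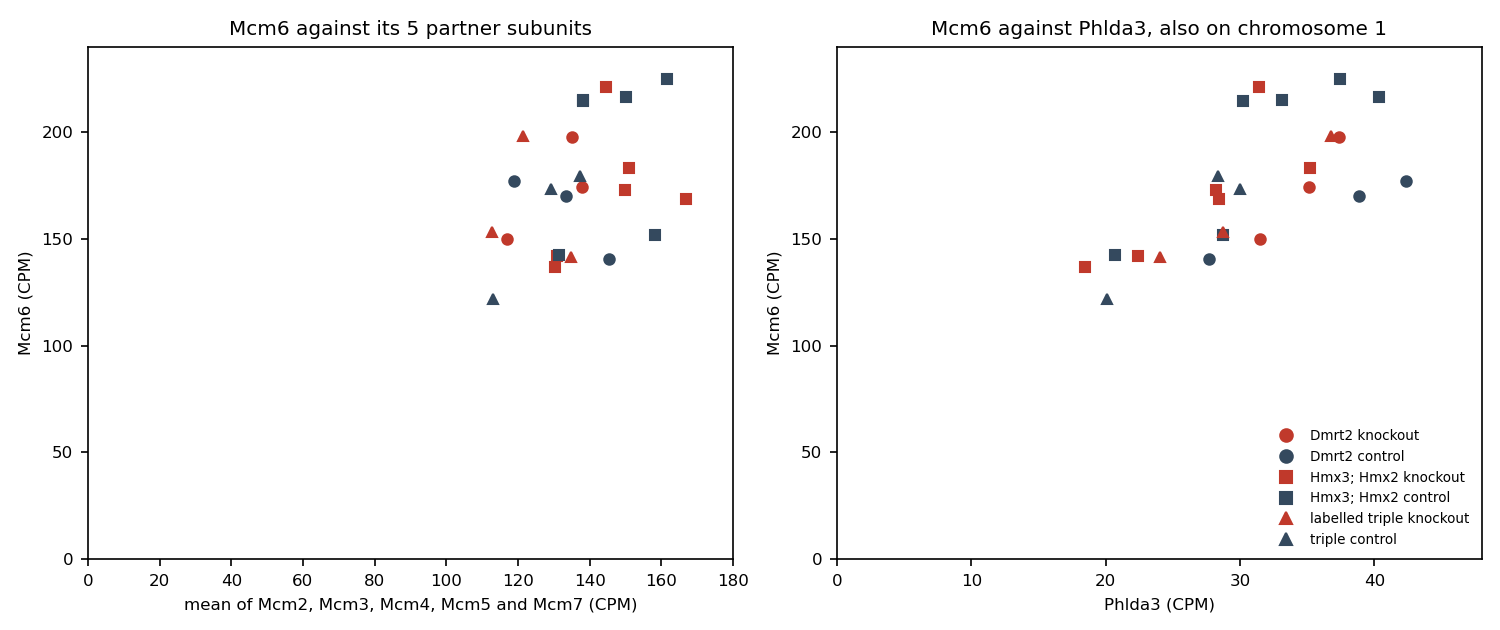
Mcm6 in CPM against the mean of its 5 partner subunits (left) and against Phlda3, another gene of chromosome 1 (right), in 24 libraries; colour marks knockout or control and shape the line. Libraries with partner means near 130 to 150 CPM have Mcm6 anywhere from 137 to 221 CPM, while Mcm6 rises with Phlda3 in each line.

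Of the longer members, Cenpf, Mki67 and Cenpe followed gene length more than they followed the other members. Over all genes with a mean of at least 5 CPM, the median log2 fold change rose with exon length in each comparison: from −0.094 under 2 kb to 0.10 over 10 kb in the Dmrt2 comparison, from −0.026 to 0.057 in the Hmx3; Hmx2 comparison and from −0.094 to 0.064 in the triple comparison. Cenpf (15433 bases of exon), Mki67 (10061) and Cenpe (8620) are among the 5 longest members, and their deviations followed the difference between long and short genes of a library (r = 0.615, 0.766 and 0.639 over 24 libraries, against 0.281, 0.222 and 0.528 with the mean of the other members), unlike Cdc20 (1868 bases, r = 0.015) or Ccnb1 (4217, r = −0.015). Other long members did not: Rrm1 (11012 bases) had r = 0.214 with the long genes and 0.906 with the other members, Top2a (9013) 0.515 and 0.766, and Mad2l1 (8390) −0.255 and 0.724. In the bin of 3 to 5 kb, which holds 18 members, the members' median was 0.11 in the Dmrt2 comparison against −0.014 for all genes, and −0.080 against −0.042 in the triple comparison. With gene length corrected in each library, a step added after the data were seen, the medians of the 40 members were 0.099, 0.0043 and −0.059, and edgeR called 0 members in each comparison.

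**Figure D5:**
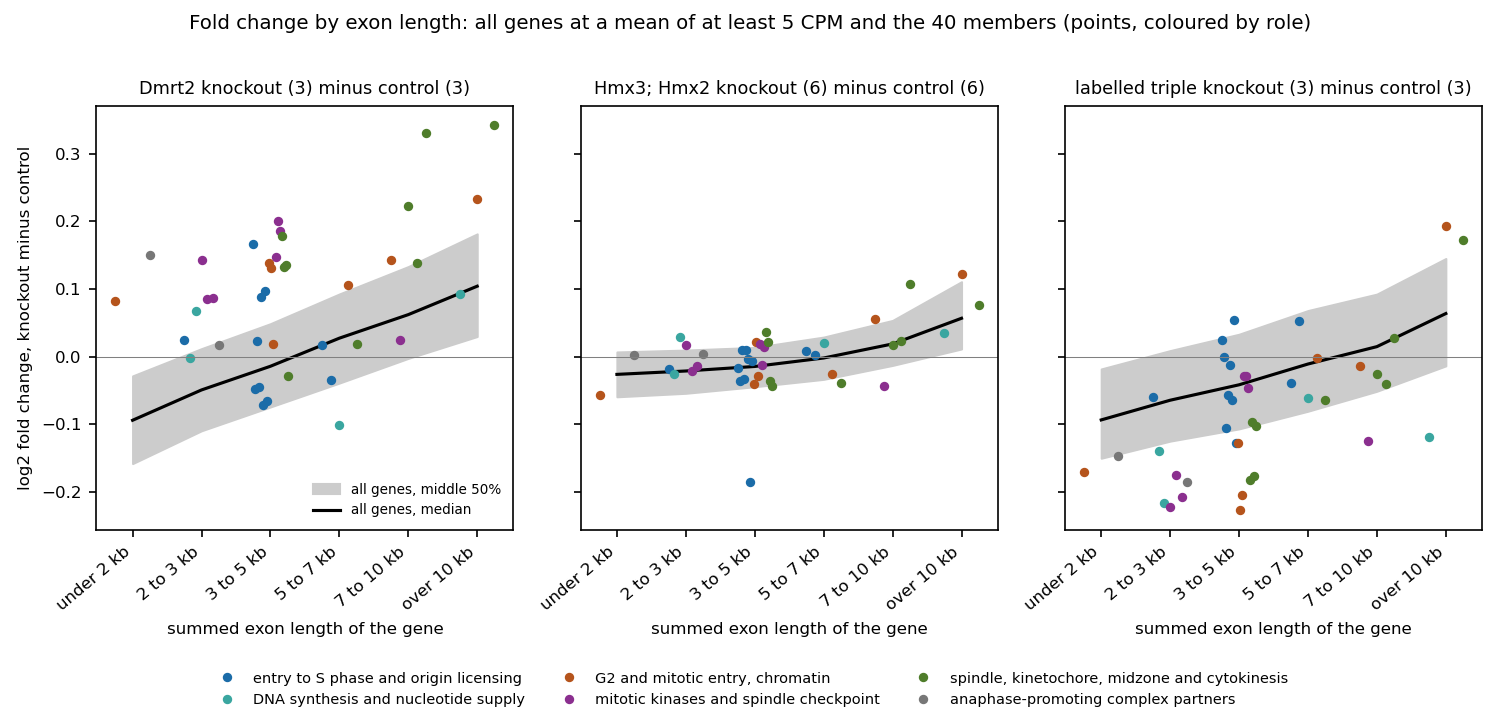
Log2 fold change by summed exon length: median (line) and middle 50% (grey) of all genes with a mean of at least 5 CPM, and the 40 members as points coloured by role, in the 3 comparisons. The line climbs with length in each panel, most members of the Dmrt2 panel lie above it, and most members of the panel of libraries labelled triple knockout lie below it.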

How the data were processed

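Whole kidneys were profiled by poly(A)-selected RNA-seq with 150-base reads. The deposited counts of reads per gene come in 4 tables of 54393 genes, made by the authors, per the file headers, with featureCounts 2.0.3 on mm39 with GENCODE genes, without strand. The submitters' processing notes name fastp 0.20.1, STAR 2.7.0e and featureCounts 2.0.1. The low counts are mostly even (90.2% of counts from 1 to 19), since both mates of a pair were counted, so a count is not an independent molecule. No row lacked a gene name, and 2 columns without a matching sample were set aside.

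Totals ranged from 52286824 to 127339273 reads. No 2 libraries of a group looked like copies of 1 library (0 of 24 pairs). Genes were kept by edgeR's filter (minimum count 10, minimum total 15), scaled with TMM and tested with edgeR 4.0.16 (quasi-likelihood F test, limma 3.58.1, R 4.3.3) within each line, with the deposited table as a term for the Hmx3; Hmx2 line. p-values were adjusted by Benjamini-Hochberg over all genes tested, with a threshold of 0.05. The SE was derived from the log2 fold change and F. Differences of effects came from 1 fit of 24 libraries with 8 coefficients. Libraries whose Y-linked genes summed to at least 5 CPM were counted as expressing them. The fits were tested on simulated counts in which genes vary independently. Calls were required there only for changes larger than those of the members. That check therefore does not show how often differences of the members' size are found. Alternatives were other size factors, other filters, DESeq2 1.42.0, a Y-linked term, a replicate block, length-corrected offsets and leaving out each library.

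The members and the lists of related genes were chosen with earlier results of these data known. Values per library (for 6 libraries the lowest, median and highest) are given for 16 members picked for their roles (Mki67, Top2a, Ccnb1, Cdk1, Aurkb, Plk1, Bub1b, Cdc20, Mcm2, Mcm6, Pcna, Rrm2, Ccne1, Ccne2, Foxm1 and E2f1), for any member called, and for the highest and lowest of each comparison. From the related lists, called genes, the highest and the lowest of each list, Bub3, Cdkn1a, Cdkn1c and Ccnd1 are named. Mcm6 neighbours were chosen after their values were seen. Gene positions are those of the deposited tables (mm39), and promoter windows are of another build (GRCm38.p6).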

Additional observations from a re-analysis of the deposited data

Results flagged for a closer look

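In the 6 controls of the Hmx3; Hmx2 line, control 6 stood far above the others for 2 members. Bub1, the checkpoint kinase, lay at 38.57 CPM there against 29.73 to 33.03 CPM in the other 5 controls. Kif20a, the midzone kinesin, lay at 67.8 CPM against 52.28 to 57.66 CPM. The gaps to the next control take 0.627 and 0.653 of the range of the 6 controls, above the limit of Dixon's test for 6 samples. The same library had 37 of 40 members above the mean of its group and the highest summed level of the controls (4163 CPM). Of 82 group values tested, 2 were set apart in this way (2.44%), and chance sets apart about 1 in 20.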

How the results depend on the processing

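Results that use the 40 members kept their counts of called genes in the Hmx3; Hmx2 comparison and in all 3 differences of effects, at 0 under every alternative run. In the Dmrt2 comparison the count of 1 became 2 with DESeq2 (Cenpe and Cenpf) and 4 without a filter (with Kif11 and Mki67). It became 0 with length-corrected offsets, 0 in the joint fit and 0 to 2 when 1 library was left out. The Dmrt2 median of 0.0906 became −0.0175 with the Y-linked term, where knockout 1 alone stands against the controls. That fit cannot decide whether the call of Cenpe holds. Without 1 library the Dmrt2 median ranged from 0.0513 to 0.1513. In the triple comparison the count of 0 became 3 with DESeq2 (Ccnb1, Cdk1 and Rrm2) and 7 without a filter (with Aurka, Nusap1, Plk1 and Ube2c), and stayed at 0 when 1 library was left out, while the median ranged from −0.1426 to −0.0246. The Hmx3; Hmx2 median ranged from −0.0279 to 0.0266 without 1 library and was 0.0079 and 0.007 in its separate tables. Over all genes the Dmrt2 comparison called 88 genes, 417 with DESeq2, 676 without a filter, 50 with length-corrected offsets and 26 to 195 without 1 library. The triple comparison called 222, 1034 with DESeq2, 1510 without a filter, 529 in the joint fit and 20 to 438 without 1 library. The causes were not tested. The labels do not say that replicate numbers pair the libraries, and the values differed by line. Correlations of same-numbered libraries were 0.026 to 0.169, −0.281 to 0.616 and −0.578 to −0.018 in the Dmrt2, Hmx3; Hmx2 and triple lines. In that order, 5 of 6, 5 of 12 and 0 of 6 libraries correlated best with their own number. With the replicate number as a block, 1, 0 and 0 members were called, with medians of 0.0902, 0.0024 and −0.0636, and 80, 5 and 51 of all genes. The length correction, the leave-one-out fits of the differences of effects and the Mcm6 neighbours were added after the data were seen. No fold change of a named member changed sign while called. Depth does not limit these genes, whose lowest count was 628 reads, but with 3 libraries a group differences of the size seen here lie near the spread.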
